A study of Mus musculus with 107 samples.

Results

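Growth factor receptor tyrosine kinases sit in the cell membrane and turn the binding of a secreted factor outside the cell into phosphorylation inside it. A bound receptor pairs with a second receptor, the kinase domains phosphorylate each other, and adaptors carry the signal to the RAS-ERK and PI3K-AKT cascades. In neural progenitors, EGF and FGF act through these receptors as the mitogens that keep the cells dividing, and in the adult cord different receptors mark different cells. There, Fgfr3 is typical of astrocytes, Pdgfra of oligodendrocyte precursors, and Pdgfrb of pericytes and fibroblasts. The 10 receptors described here were taken by name from 4 families, as 10 of 27179 genes counted. The EGF receptor family is Egfr, Erbb2, which has no ligand of its own, and the neuregulin receptors Erbb3 and Erbb4. The others are the FGF receptors Fgfr1, Fgfr2 and Fgfr3, the PDGF receptors Pdgfra and Pdgfrb, and Met, the receptor for hepatocyte growth factor.

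RNA bound to ribosomes that carry a haemagglutinin tag (RiboTag) was immunoprecipitated and sequenced in 107 libraries of 23 groups, all labelled C57BL/6 and RiboTag +. The study compared mouse embryonic stem cells (ESC), neural progenitor cells (NPC) made from them, NPC differentiated in culture or grafted into spinal cord, and host astrocytes. According to the study's methods all NPC came from a single ESC line with an excised, constitutive RiboTag allele, so that every NPC descendant carried the tag. In host mice the tag depended on a Cre driven by the Gfap promoter. NPC were expanded in EGF and FGF at 100 ng/ml and sampled at passages 5, 15 and 30 (NPC P5, NPC P15 and NPC P30, n = 4 each). Beside them stood ESC (n = 4) and 2 more derivations at passage 15 (NPC P15 D2, n = 6, and NPC P15 D3, n = 4). For spontaneous differentiation (SPONT, n = 4) both mitogens were lowered to 1 ng/ml for 4 days. The other cultures received, in that low-mitogen medium, ciliary neurotrophic factor (CNTF) or insulin-like growth factor 1 (IGF-1) at 100 ng/ml, fetal bovine serum (FBS) making up 1, 5, 10 or 20% of the volume, or CNTF with 5% FBS (n = 4 each). The sources used here give no separate CNTF concentration for that combination. Undifferentiated NPC were passed through a pipette in medium, in hydrogel, or in hydrogel after 4 h in it (n = 5 each). NPC grafts lay in the spinal cord of adult mice and were recovered after 14 days from a crush injury (graft SCI 14 d), from uninjured cord (graft uninjured) or from a double crush injury (graft dSCI). A further group was recovered after 5 days from a crush injury (graft SCI 5 d), and each of the 4 had n = 5. By the study's account NPC were grafted in hydrogel, and into injured cord 2 days after the injury. Grafts are compared below with NPC pipetted in medium, and NPC pipetted in hydrogel were not tried as a reference. In those comparisons carrier and grafting cannot be told apart. Host astrocyte RNA came from adult mice with healthy cord (n = 9) or 14 days after a crush injury (host SCI, n = 5). The study's reporting form describes its culture replicates in general as independent and from different cell stocks. Neither it nor the labels say which stock each library came from, and where libraries share one, p-values measure only the spread between these samples.

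The 96 paired-end libraries held 30473157 to 147764968 counts, with both mates of a pair counted. The 11 single-read libraries, those of NPC P15 D2 and graft SCI 5 d, held 12286240 to 18085106. In comparisons of those 2 groups with others, read type and condition cannot be told apart. The 4 ESC markers summed to 1502 CPM (counts scaled to the library's total) in ESC and 0.323 in NPC P15. The 6 astrocyte markers summed to 525 CPM in NPC P15, 13059.9 in SPONT and 46225 in healthy host astrocytes. The host and graft libraries also held transcripts typical of other cell types. Oligodendrocyte lineage markers summed to 9315 CPM in healthy and 31862 CPM in injured host astrocytes. The 5 fibroblast markers summed to 14.9 CPM in NPC pipetted in medium and to between 1849 and 13510.3 CPM in the 4 graft groups. In NPC differentiated in 20% FBS, without host tissue, they summed to 412 CPM. Whether the fibroblast transcripts in grafts came from grafted or from host cells was not tested. In bulk RNA such as this, fewer cells of a type and less RNA per cell cannot be told apart.

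The regions around the transcription starts of 4 receptors are shown for orientation. Egfr was high in NPC, and Fgfr3, Met and Fgfr2 were all higher after differentiation. The Fgfr2 window differed most in base composition from those of Egfr, Fgfr3 and Met. Each region is a RefSeq window on GRCm38.p6 from 250 bases before to 50 bases after an annotated start, printed 5′ to 3′ on the gene's strand. The GC box GGGCGG or its complement CCGCCC is in capitals.
Egfr, chr11:16751953-16752252, plus strand: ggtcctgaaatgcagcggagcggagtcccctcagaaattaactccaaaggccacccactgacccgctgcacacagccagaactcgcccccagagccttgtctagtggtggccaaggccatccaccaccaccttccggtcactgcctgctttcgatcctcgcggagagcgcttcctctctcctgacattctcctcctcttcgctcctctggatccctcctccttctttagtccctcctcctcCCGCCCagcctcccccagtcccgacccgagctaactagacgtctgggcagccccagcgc
Fgfr3, chr5:33721474-33721773, plus strand: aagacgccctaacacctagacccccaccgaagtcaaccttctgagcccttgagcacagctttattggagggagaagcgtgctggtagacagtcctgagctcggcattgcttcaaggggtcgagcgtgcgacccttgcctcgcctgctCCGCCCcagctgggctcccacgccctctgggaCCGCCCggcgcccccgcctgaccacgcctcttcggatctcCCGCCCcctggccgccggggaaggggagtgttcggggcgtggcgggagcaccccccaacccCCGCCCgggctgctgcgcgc
Met, chr6:17463707-17464006, plus strand: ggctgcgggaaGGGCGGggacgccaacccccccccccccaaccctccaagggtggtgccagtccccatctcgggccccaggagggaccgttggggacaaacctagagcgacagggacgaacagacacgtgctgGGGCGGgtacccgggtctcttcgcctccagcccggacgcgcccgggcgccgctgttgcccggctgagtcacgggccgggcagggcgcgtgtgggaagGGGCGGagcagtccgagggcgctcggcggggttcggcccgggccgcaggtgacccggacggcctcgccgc
Fgfr2, chr7:130266759-130267058, minus strand: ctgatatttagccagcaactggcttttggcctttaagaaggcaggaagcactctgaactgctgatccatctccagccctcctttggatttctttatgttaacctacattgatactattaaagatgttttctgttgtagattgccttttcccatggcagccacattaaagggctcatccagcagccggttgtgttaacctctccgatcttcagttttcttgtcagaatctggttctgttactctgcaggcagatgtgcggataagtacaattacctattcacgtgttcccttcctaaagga
The G and C content was 62.3% for Egfr, 69.7% for Fgfr3, 75.7% for Met and 43.7% for Fgfr2. GC boxes numbered 1 in the Egfr window, 4 in the Fgfr3 window shown, 3 in that of Met and 0 in that of Fgfr2. A further Fgfr3 start had its own window, at chr5:33722056-33722355, with 73% G and C and 2 GC boxes. At least 1 on either strand was found in 35.7% of 32851 windows of that length. None of the 8 windows found for 7 of the receptors held TTCNNNGAA, the core of STAT binding sites, which 8.3% of all windows held, or TATAAA, which 13.6% held. No window was matched for Erbb3 and Fgfr1, which does not show that RefSeq holds no start for them. For Pdgfrb no match was possible, because its chromosome was left out of the search.

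Compared per length of exon, as FPKM (counts scaled to library size and to kilobases of exon), the leading receptors were not the same in stem cells, differentiated cells and cord. Fgfr1, the widely expressed FGF receptor, led in ESC at 13.3 FPKM, followed by Erbb2 at 9.62 and Erbb3 at 8.97. In NPC P15 Fgfr1 stood at 43.5 FPKM, 54.1% of the sum over the 10 receptors, and Egfr followed at 16.2 FPKM or 20.1%. After spontaneous differentiation Fgfr3 at 27.2 FPKM and Fgfr1 at 24.9 FPKM were nearly level, whereas in 20% FBS Fgfr1 made up 51.1% of the sum and Pdgfrb 10.7%. Healthy host astrocytes were dominated by Fgfr3, at 164 FPKM or 77.5% of the sum, which was 42.7 FPKM or 40.1% after injury. Grafts were mixed, with Fgfr1 at 32.7 and Pdgfra at 32.5 FPKM in uninjured cord, and Fgfr1 at 39.4 and Pdgfrb at 32.3 FPKM after double crush. Erbb4 stayed below 1 FPKM in every group, with its highest mean of 0.818 FPKM in grafts in uninjured cord. When the 23 groups were ordered by the mean of 1 receptor, between 18 (Egfr and Fgfr2) and 22 (Erbb2) of the 22 pairs of neighbours had overlapping ranges, so that the order describes broad steps and not single ranks.

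**Figure D1:**
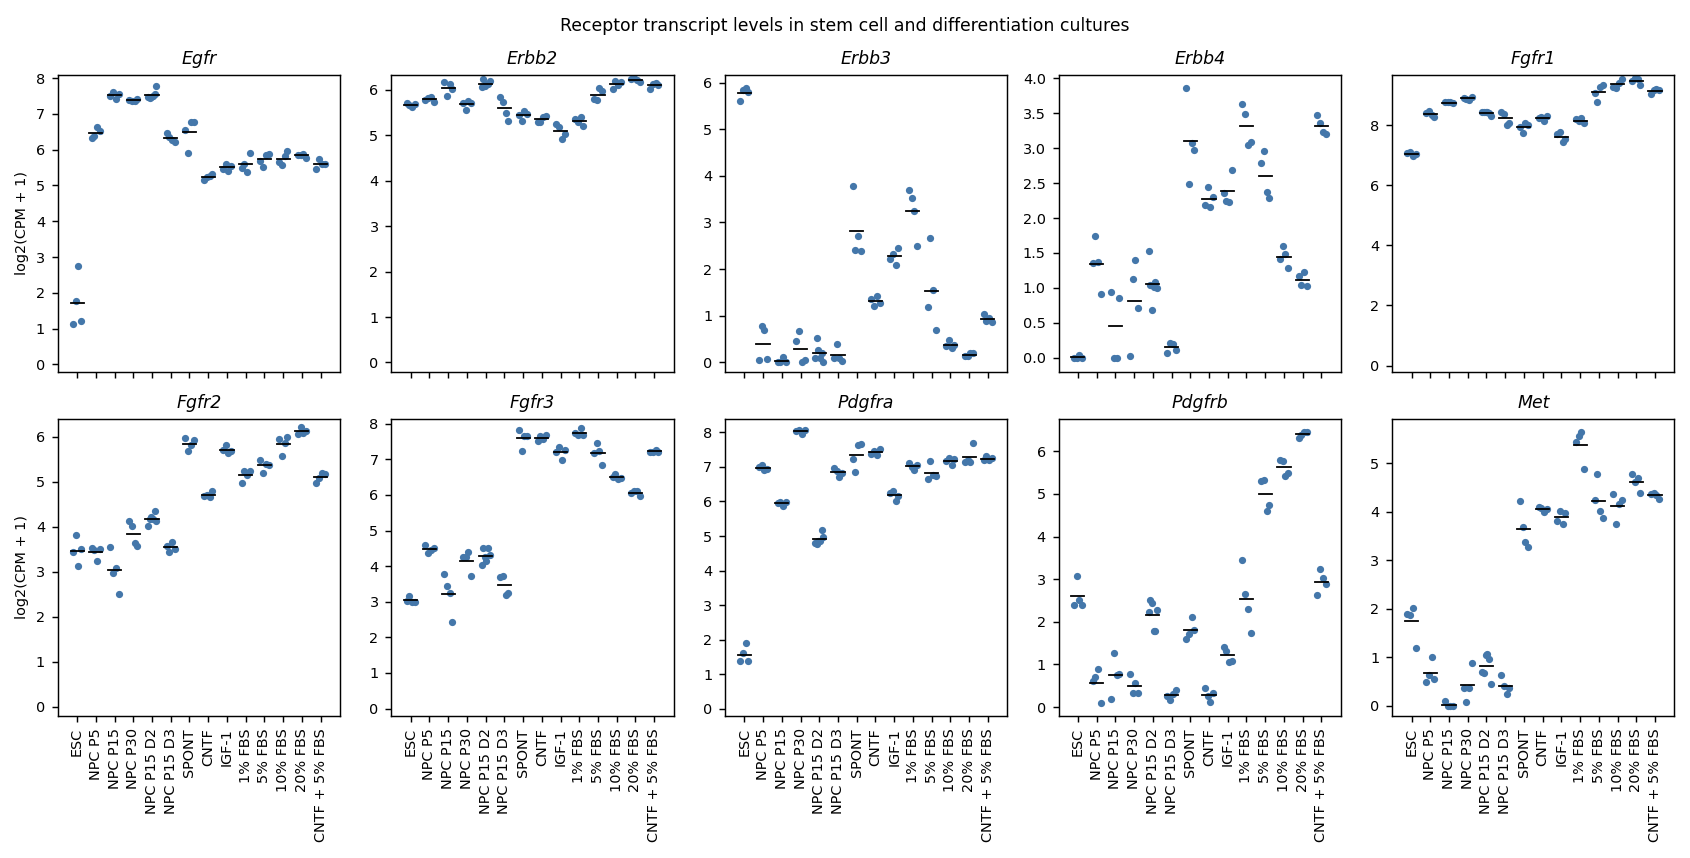
Transcript level of each receptor, as log2(CPM + 1), in every library of the stem cell and differentiation cultures; points are libraries and lines are group means, and the vertical axes differ between receptors. Egfr and Pdgfra were near the floor in ESC and high in NPC, and Fgfr2, Fgfr3, Met and Erbb3 were higher in SPONT than in every NPC group.

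The 24 pairwise comparisons of 10 receptors gave 240 differences, of which 234 passed the filter on low counts. With edgeR's quasi-likelihood test 105 were called at an adjusted p below 0.01, 60 higher and 45 lower. Of these calls, 86 held when any single library was left out. In NPC P15 against ESC 7 of 9 tested receptors were called, 4 higher and 3 lower, where 67.2% of all tested genes were called. In NPC P30 against NPC P5 3 were higher (35.5% of all genes called). In NPC P15 D2 against NPC P15 4 were higher and 2 lower of 9 (55.9%), and in NPC P15 D3 against NPC P15 2 were higher and 3 lower of 8 (48%). SPONT against NPC P15 gave 6 higher and 3 lower of 10, against a background of 57.2%. Against SPONT, CNTF gave 1 higher and 4 lower (19.9%), IGF-1 2 lower (6.55%) and 1% FBS 1 higher and 2 lower (8.78%). Against 1% FBS, 3 were higher and 2 lower in 5% FBS (31.1%), and 4 were higher and 4 lower in 20% FBS (60%). CNTF with 5% FBS gave 2 lower against 5% FBS alone (23.3%), and 6 higher and 3 lower against CNTF alone (72.8%).

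Pipetting in hydrogel in place of medium gave 1 higher of 9 tested receptors, where 4.32% of all genes were called. Waiting for 4 h in hydrogel gave 0 of 9 with edgeR or DESeq2, where 0.32% were called and 1 receptor, Pdgfrb, had an unadjusted p under 0.05. Grafts against pipetted medium gave 5 higher and 2 lower after 5 days (55.5% of all genes called), the same numbers after 14 days in SCI (52.5%), and 6 higher and 3 lower in uninjured cord (53.4%). Among grafts, 2 were higher and 1 lower at 14 against 5 days (5.3%). Between SCI and uninjured cord 0 passed with edgeR or DESeq2, where 4.64% of all genes were called and Fgfr2 and Fgfr3 had an unadjusted p under 0.05. Of the 10, 1 was lower in dSCI than in uninjured cord (4.19%) and 1 was higher in dSCI than in SCI (1.83%). Host astrocytes after SCI had 3 higher and 3 lower (41.1%). Grafts against host astrocytes gave 1 higher and 2 lower in SCI (14.6%), and 2 higher and 1 lower in uninjured cord (49.7%). The comparisons with pipetted medium, and those with SPONT, 1% FBS or NPC P15, share reference libraries and are not independent of each other.

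**Figure D2:**
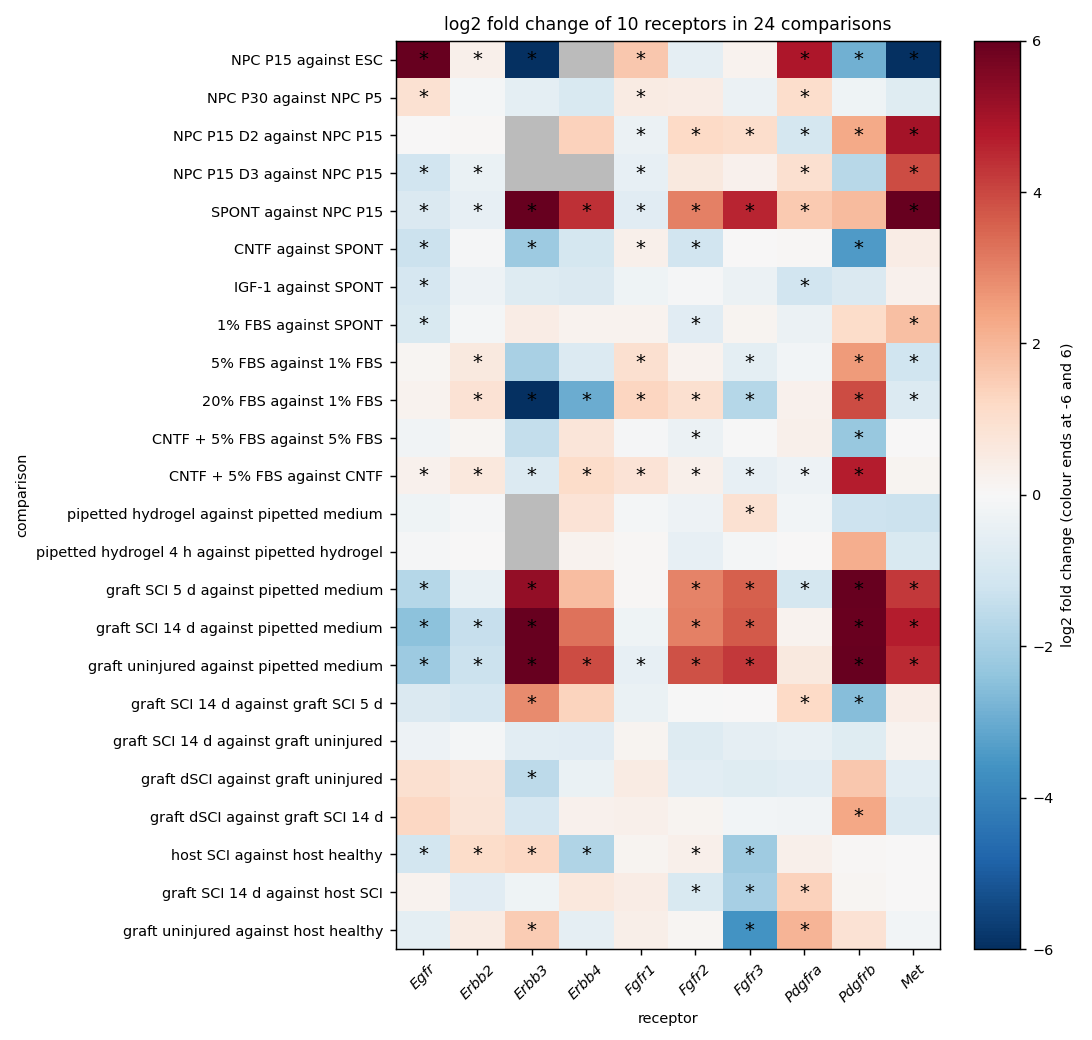
Fitted log2 fold change of each receptor (horizontal) in 24 comparisons (vertical); red is higher and blue lower in the first-named group, the colour scale ends at -6 and 6, an asterisk marks an adjusted p below 0.01 and grey marks receptors that did not pass the filter on low counts. In the 3 comparisons of grafts with pipetted medium, which share their reference libraries, Egfr is blue and Fgfr2, Fgfr3, Pdgfrb and Met are red.

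Egfr, the receptor for the EGF in the expansion medium, was near the floor in ESC and abundant in NPC (Entrez gene 13649, chr11:16752203-16913907 on GRCm38). ESC libraries held 1.18, 2.41, 5.73 and 1.32 CPM and NPC P15 libraries 179, 195, 170.2 and 188 CPM. The groups did not overlap, and the log2 difference, given with its standard error here and below, was 6.04 ± 0.42 (adjusted p = 1.26e-07). It was higher at the later passage, going from 79.6, 83.0, 98.1 and 91.0 CPM in NPC P5 to 167, 162, 164 and 169 CPM in NPC P30, again without overlap (0.89 ± 0.06 at adjusted p = 3.46e-10). The derivation NPC P15 D3 held 87.9, 81.5, 76.2 and 73.5 CPM, below every NPC P15 library (-1.15 ± 0.08 at adjusted p = 7.83e-08). NPC P15 D2 held 175 to 217 (median 179) CPM and did not pass the test (0.02 ± 0.06 at adjusted p = 0.82).

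On withdrawal of the mitogens Egfr stood at 92.3, 59.2, 108 and 109 CPM, all below NPC P15, a fall of 0.87 ± 0.16 on the log2 scale (adjusted p = 0.000473). The direction depended on which NPC served as reference, since against NPC P5 the log2 difference was 0.20 (adjusted p = 0.289) and against NPC P15 D3 it was 0.27 (adjusted p = 0.144). CNTF, IGF-1 and 1% FBS cultures were each lower than SPONT. CNTF libraries held 34.5, 36.7, 37.7 and 39.2 CPM (-1.29 ± 0.16 at adjusted p = 0.000126), all below SPONT. IGF-1 libraries held 43.4, 47.8, 41.4 and 45.6 CPM (-0.996 ± 0.16 at adjusted p = 0.00528), also all below. In 1% FBS the libraries held 44.1, 47.5, 40.7 and 59.5 CPM (-0.93 ± 0.17 at adjusted p = 0.0045), and the highest of them overlapped the lowest SPONT library. The IGF-1 call was lost without any of SPONT replicates 3 and 4 and IGF-1 replicates 1 to 4 (log2 difference -1.02 to -0.91, adjusted p 0.0189 to 0.0254). Likewise the 1% FBS call was lost without any of SPONT replicates 3 and 4 and 1% FBS replicates 1 to 3 (-0.93 to -0.84, adjusted p 0.016 to 0.0181). More serum did not bring a call, at 0.20 for 20% against 1% FBS (adjusted p = 0.0665), except that without 1% FBS replicate 4 the difference was 0.29 (adjusted p = 0.0021).

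In grafts Egfr was low. Pipetted NPC in medium held 124, 143, 152, 146 and 117 CPM. Grafts in SCI held 30.7, 50.0, 58.5, 23.5 and 34.5 CPM after 5 days and 21.98, 14.1, 12.1, 17.0 and 28.9 CPM after 14 days, and grafts in uninjured cord held 40.8, 30.2, 13.7, 35.4 and 24.6 CPM. No graft library of these 3 groups reached the lowest pipetted one. In that order Egfr fell by 1.70 ± 0.20 on the log2 scale (adjusted p = 1.62e-05), 2.47 ± 0.26 on the log2 scale (adjusted p = 3.67e-06) and 2.18 ± 0.25 on the log2 scale (adjusted p = 1.1e-05). Grafts in double crush held 80.9, 49.5, 40.6, 34.5 and 35.1 CPM, each above every graft SCI 14 d library. This difference did not pass with edgeR (1.26 ± 0.31 at adjusted p = 0.0233). It passed without graft SCI 14 d replicate 5 (1.57, adjusted p = 0.00223), with DESeq2 (1.26, adjusted p = 0.00303) and in a fit over all groups of the experiment (1.24, adjusted p = 0.00935). Host astrocytes held 24.7 to 38.5 (median 29.0) CPM in healthy cord and 14.1, 9.32, 16.8, 24.3 and 15.2 CPM after SCI. The groups did not overlap, and Egfr was lower after injury (-1.08 ± 0.16 at adjusted p = 2.76e-05).

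Erbb2, the partner with which the other ErbB receptors pair, was expressed in every group (Entrez gene 13866, chr11:98412484-98437716 on GRCm38). Its means ran from 6.41 FPKM in IGF-1 to 14.2 FPKM in 20% FBS across the cultures. It rose with serum, from 40.2, 38.3, 41.7 and 35.9 CPM in 1% FBS to 55.0, 53.7, 64.5 and 61.9 CPM in 5% FBS (0.58 ± 0.08 at adjusted p = 0.000308). In 20% FBS it stood at 74.8, 76.3, 73.9 and 71.1 CPM (0.89 ± 0.07 at adjusted p = 1.97e-07 against 1% FBS), and neither serum group overlapped 1% FBS. SPONT, at 42.6, 38.6, 45.3 and 43.4 CPM, was lower than NPC P15, at 71.0, 57.7, 68.7 and 64.4 CPM (-0.50 ± 0.09 at adjusted p = 0.000652). The call was lost with NPC P5, NPC P30 or NPC P15 D3 as reference (-0.22, -0.091 and -0.11). NPC P15 and ESC, which held 51.5, 49.6, 48.5 and 50.9 CPM, differed by 0.30 ± 0.08 (adjusted p = 0.00662). This small difference was lost without any single library other than NPC P15 replicate 2 (log2 difference 0.23 to 0.31, adjusted p 0.0104 to 0.0354). DESeq2 did not call it either (0.26, adjusted p = 0.0138), and it turned to -0.0056, -0.087 and -0.17 with NPC P5, NPC P30 and NPC P15 D3. NPC P15 D3 was lower than NPC P15 (-0.41 ± 0.12 at adjusted p = 0.00831), a difference lost when any of NPC P15 replicates 1, 3 and 4 or NPC P15 D3 replicates 2 to 4 was left out (-0.44 to -0.31, adjusted p 0.0104 to 0.0309).

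In 14-day grafts Erbb2 fell, from 52.9, 64.7, 62.2, 60.6 and 57.8 CPM in pipetted medium to 20.3, 21.7, 20.0, 26.6 and 4.20 CPM in SCI (-1.38 ± 0.32 at adjusted p = 0.00218). Grafts in uninjured cord held 39.6, 14.7, 15.1, 32.2 and 15.9 CPM (-1.30 ± 0.28 at adjusted p = 0.00152). All of these libraries were below the pipetted ones. Between grafts in SCI and grafts in uninjured cord Erbb2 was not called. In host astrocytes Erbb2 was higher after injury than in healthy cord. Healthy libraries held 7.69 to 17.5 (median 10.9) CPM and injured ones 27.2, 31.9, 27.1, 32.8 and 21.8 CPM, with no overlap and a rise of 1.12 ± 0.16 (adjusted p = 1.54e-05). The 4 Schwann cell markers, all higher, summed to 839 to 1815 CPM in healthy and 2160.4 to 5119 CPM in injured cord. The 9 oligodendrocyte lineage markers, 7 of them higher, summed to 6740.1 to 12712 and 23103 to 38854 CPM, and their part in the change was not tested.

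Erbb3, a neuregulin receptor with an impaired kinase that is abundant in Schwann cells and oligodendrocytes, fell from ESC to NPC and rose again with differentiation (Entrez gene 13867, chr10:128567523-128589635 on GRCm38). ESC libraries held 47.7, 56.0, 57.9 and 54.3 CPM, while 3 of the 4 NPC P15 libraries had no count and replicate 3 had 5 counts in all. By the fit Erbb3 fell by 11.44 ± 0.40 on the log2 scale (adjusted p = 4.14e-10), a size that rests on those 5 counts. SPONT libraries held 12.8, 4.31, 5.56 and 4.24 CPM, a rise over NPC P15 (8.46 ± 0.84 at adjusted p = 5.31e-06) whose size rests on them as well. CNTF held 1.55, 1.33, 1.66 and 1.40 CPM, below every SPONT library (-2.16 ± 0.35 at adjusted p = 0.000873). With serum it declined, from 11.9, 10.5, 8.51 and 4.64 CPM in 1% FBS to 0.0997, 0.0922, 0.155 and 0.141 CPM in 20% FBS, with no overlap (-6.21 ± 0.36 at adjusted p = 1.21e-08). In 5% FBS the libraries held 1.27, 5.38, 1.93 and 0.628 CPM and the step from 1% FBS did not pass (-1.97 ± 0.55 at adjusted p = 0.014). Without 5% FBS replicate 2 it did, at -2.82 (adjusted p = 0.00021), as it did with DESeq2 (adjusted p = 0.00996), with no filter (adjusted p = 0.00899) and in a fit over all cultures (adjusted p = 0.000165). The 9 oligodendrocyte lineage markers summed to 4878 to 5997 CPM in 1% FBS and 643 to 669 CPM in 20% FBS, with 8 of 9 lower, and their part in the Erbb3 change was not tested.

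Grafts expressed Erbb3, which reached at most 0.395 CPM in pipetted medium. Grafts in SCI held 2.12, 1.34, 1.54, 3.81 and 7.79 CPM after 5 days and 36.8, 28.0, 21.9, 4.64 and 17.3 CPM after 14 days. Grafts in uninjured cord held 35.5, 50.2, 53.1, 39.5 and 20.8 CPM, and those in double crush 13.6, 10.4, 10.8, 9.62 and 10.0 CPM. All 3 graft groups compared with pipetted medium rose (5.27 ± 1.44 at adjusted p = 0.00653, 8.18 ± 1.10 at adjusted p = 2.86e-05 and 8.78 ± 1.01 at adjusted p = 9.59e-06). The 5-day call was lost without any of pipetted medium replicates 1 to 4 or graft SCI 5 d replicates 1, 4 and 5 (4.71 to 5.38, adjusted p 0.0105 to 0.0226). Grafts in double crush were lower than those in uninjured cord, without overlap (-1.59 ± 0.26 at adjusted p = 0.00309). That difference did not pass without graft uninjured replicate 2 or graft dSCI replicate 2 or 3 (-1.54 to -1.47, adjusted p 0.0105 to 0.0116), or in a fit over all groups of the experiment (-1.62, adjusted p = 0.108). Oligodendrocyte lineage markers summed to 15454 to 29383 CPM in uninjured cord and 4304 to 12912 CPM after double crush, with 4 of 9 lower, and their part was not tested. From 5 to 14 days in SCI Erbb3 rose by 2.85 ± 0.58 (adjusted p = 0.00704), but the ranges overlapped through graft SCI 14 d replicate 4. The rise was lost without any of replicates 1, 2, 3 and 5 at 14 days or 1 to 3 at 5 days (2.63 to 2.88, adjusted p 0.0117 to 0.0208).

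Host astrocytes held 5.34 to 13.7 (median 9.45) CPM of Erbb3 in healthy cord and 27.4, 28.2, 28.0, 36.2 and 5.12 CPM after SCI (1.22 ± 0.30 at adjusted p = 0.00249). Of the injured libraries, replicate 5 lay below all healthy ones and the other 4 above them. Grafts in uninjured cord exceeded healthy host astrocytes (1.53 ± 0.23 at adjusted p = 1.46e-05) without overlap. Of 9 oligodendrocyte lineage markers 5 were higher in those grafts, with sums of 15454 to 29383 CPM against 6740.1 to 12712 CPM in those hosts, and their part in the difference was not tested.

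Erbb4, the neuregulin receptor with an active kinase, was low in all groups (Entrez gene 13869, chr1:68031884-69108576 on GRCm38). ESC held 2 counts in all and NPC P15 109, a ratio of 62.2 (95% counting interval 16.8 to 520) that the filter kept out of the test. SPONT held 13.5, 4.58, 7.46 and 6.83 CPM, above the 0.913, 0, 0 and 0.809 CPM of NPC P15 (4.38 ± 1.02 at adjusted p = 0.00275), a rise that did not pass without SPONT replicate 1 (3.99, adjusted p = 0.0111) or with DESeq2 (4.36, adjusted p = 0.0129). It was lower in 20% than in 1% FBS (-3.00 ± 0.18 at adjusted p = 1.82e-08), at 1.24, 1.05, 1.33 and 1.03 against 11.4, 10.3, 7.30 and 7.48 CPM. The difference between cultures with and without CNTF itself differed with serum. With 5% FBS the CNTF libraries held 10.1, 9.31, 8.39 and 8.19 CPM against 5.91, 6.82, 4.18 and 3.88 CPM in 5% FBS alone (0.72 ± 0.19 at adjusted p = 0.0122). Without serum CNTF held 3.55, 4.47, 3.47 and 3.94 CPM against the SPONT values above (-1.05 ± 0.27 at adjusted p = 0.014). Neither difference passed alone with edgeR, and the interaction of CNTF with 5% FBS did (1.76 ± 0.35 at adjusted p = 0.00117). Without 5% FBS replicate 2 the first difference passed (0.89, adjusted p = 0.00211), and without SPONT replicate 2 the second did (-1.23, adjusted p = 0.000444). With DESeq2 both passed (0.73 at adjusted p = 0.000604 and -1.05 at adjusted p = 0.00069), and the first also passed with scaling by library size alone (0.79) or with no filter (0.73).

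In the cord the group means of Erbb4 were highest in grafts in uninjured cord, with 17.1, 10.0, 6.58, 10.6 and 6.28 CPM, and in healthy host astrocytes, with 4.46 to 14.4 (median 9.39) CPM. The grafts exceeded pipetted medium (3.93 ± 1.01 at adjusted p = 0.00439). The call was lost without pipetted medium replicate 2, 3 or 4 or graft uninjured replicate 1 (3.66 to 3.92, adjusted p 0.0109 to 0.0117) and with NPC P15 as reference (4.58, adjusted p = 0.0107). After SCI the host libraries held 3.16, 2.17, 4.95, 4.31 and 1.72 CPM, lower than healthy ones (-1.81 ± 0.31 at adjusted p = 8.54e-05), though the highest injured library overlapped the lowest healthy one. In a fit over all groups of the experiment the call was lost (-1.80, adjusted p = 0.0129). Neuron markers summed to 138 to 211 CPM in healthy and 10.9 to 119 CPM in injured cord, with 3 of 5 lower, and their part was not tested.

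Fgfr1 was the most or second most abundant of the receptors per length in every culture (Entrez gene 14182, chr8:25518759-25575718 on GRCm38). ESC libraries held 134, 135, 126 and 131 CPM, NPC P15 433, 434, 432 and 421 CPM and SPONT 244, 213, 269 and 258 CPM, with no overlap between the groups. It rose from ESC to NPC (1.62 ± 0.04 at adjusted p = 4.41e-11) and fell with spontaneous differentiation (-0.68 ± 0.07 at adjusted p = 1e-05). Against NPC P15 D3, itself lower than NPC P15 (-0.47 ± 0.09 at adjusted p = 0.000421), the SPONT difference was -0.22 (adjusted p = 0.0912). Serum raised Fgfr1 from 291, 282, 298 and 266 CPM in 1% FBS to 532, 435, 623 and 647 CPM in 5% FBS (0.97 ± 0.12 at adjusted p = 0.000112). In 20% FBS it reached 715, 751, 739.9 and 648 CPM (1.30 ± 0.07 at adjusted p = 9.49e-09), and neither group overlapped 1% FBS. In NPC P30 against NPC P5 Fgfr1 was higher (0.51 ± 0.04 at adjusted p = 5.62e-09), and in NPC P15 D2 it was lower than in NPC P15 (-0.35 ± 0.04 at adjusted p = 4.87e-08). With CNTF it held 298, 306, 281 and 314 CPM, a small rise over SPONT (0.30 ± 0.07 at adjusted p = 0.00892) that was lost without any of SPONT replicates 1 and 4 or CNTF replicates 1 to 4 (0.29 to 0.34, adjusted p 0.0167 to 0.0327), as well as with scaling by library size alone or with no filter.

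Grafts held Fgfr1 at 249 to 377 CPM in uninjured cord against 425 to 503 CPM in pipetted medium (-0.48 ± 0.13 at adjusted p = 0.00515). The fall was lost without any of pipetted medium replicates 2 to 5 or graft uninjured replicate 2 (-0.49 to -0.46, adjusted p 0.0107 to 0.0143) and with the size factors of DESeq2 (-0.37, adjusted p = 0.0224). It was also lost in a fit over all groups of the experiment (-0.56, adjusted p = 0.0164) and with NPC P15 (-0.39) or NPC P15 D3 (-0.017, adjusted p = 0.933) as reference. In SCI after 14 days the difference was -0.27 ± 0.11 (adjusted p = 0.0465), with scaling by library size alone giving -0.60 (adjusted p = 0.0033). Host astrocytes showed no call with injury (0.15 ± 0.09 at adjusted p = 0.153, but 0.33 at adjusted p = 0.00915 with scaling by library size alone), at 146 to 198 (median 174) CPM in healthy and 245, 191.8, 245, 246 and 175 CPM in injured cord.

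Fgfr2, a receptor of oligodendrocyte lineage cells and astrocytes in the adult cord, was low in every NPC culture and higher in every library of differentiated, grafted or host cells (Entrez gene 14183, chr7:130162451-130266808 on GRCm38). NPC P15 D2 held 15.3 to 19.4 (median 17.1) CPM (1.19 ± 0.17 at adjusted p = 3.78e-06 against NPC P15). NPC P15 held 10.7, 6.87, 7.53 and 4.70 CPM and SPONT 61.8, 50.4, 55.2 and 59.6 CPM, a rise of 3.05 ± 0.22 (adjusted p = 3.54e-07). CNTF cultures reached less, at 24.6, 25.2, 24.2 and 26.8 CPM (-1.15 ± 0.08 at adjusted p = 1.84e-06). So did 1% FBS, at 30.5, 36.7, 34.8 and 36.6 CPM (-0.70 ± 0.09 at adjusted p = 0.000499). Serum at 20% brought Fgfr2 to 66.0, 73.4, 66.9 and 68.6 CPM (0.96 ± 0.07 at adjusted p = 1.4e-07 against 1% FBS), and none of these groups overlapped its reference. With 5% FBS the libraries held 43.7, 35.6, 41.4 and 40.7 CPM and with CNTF added 30.6, 33.1, 35.6 and 34.9 CPM (-0.34 ± 0.07 at adjusted p = 0.00375). These ranges touched, and the call was lost without 5% FBS replicate 4 or any of the 4 CNTF + 5% FBS libraries (-0.35 to -0.30, adjusted p 0.0109 to 0.0172). It was also lost in a fit over all cultures (-0.33, adjusted p = 0.0404) and with scaling by library size alone (-0.27, adjusted p = 0.0194). The difference made by CNTF was smaller with serum than without it (0.80 ± 0.10 at adjusted p = 2.04e-05 for the interaction).

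In grafts Fgfr2 was higher than in pipetted medium, whose libraries held 10.9, 9.13, 15.2, 13.4 and 14.6 CPM. Grafts in SCI held 66.1, 105, 107, 82.6 and 112 CPM after 5 days (3.00 ± 0.18 at adjusted p = 7.7e-08) and 66.9, 94.3, 81.3, 56.2 and 104 CPM after 14 days (3.04 ± 0.24 at adjusted p = 2.17e-07). Grafts in uninjured cord held 118, 192.9, 154, 220.0 and 173 CPM (3.81 ± 0.21 at adjusted p = 2.76e-08). Every graft library lay above every pipetted one. Each graft in uninjured cord also lay above every graft SCI 14 d library. Even so the difference did not pass (-0.79 ± 0.23 at adjusted p = 0.0361). It passed with scaling by library size alone (-1.09, adjusted p = 0.00299), in a fit over all groups of the experiment (-0.79, adjusted p = 0.00975) and without graft SCI 14 d replicate 5 (-0.99, adjusted p = 0.00553). Against injured host astrocytes, at 178, 148, 164, 152 and 111 CPM, grafts in SCI were lower (-0.92 ± 0.20 at adjusted p = 0.00487) without overlap. The call was lost without host SCI replicate 1 or 3 or graft SCI 14 d replicate 1, 2 or 3 (-0.95 to -0.84, adjusted p 0.0106 to 0.0154). Healthy host astrocytes held 94.2 to 120.4 (median 112) CPM. The host injury difference (0.29 ± 0.09 at adjusted p = 0.00889) overlapped in range and was lost in 13 of 14 fits that left out 1 library, all but that without host SCI replicate 5 (0.23 to 0.30, adjusted p 0.0105 to 0.044), and in a fit over all groups of the experiment (0.30, adjusted p = 0.129).

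Fgfr3, the FGF receptor typical of astrocytes, showed the widest steps of the 3 FGF receptors (Entrez gene 14184, chr5:33721724-33737068 on GRCm38). NPC P15 libraries held 12.6, 9.94, 8.43 and 4.43 CPM and SPONT libraries 227, 149, 200.5 and 202 CPM, a rise of 4.57 ± 0.28 (adjusted p = 1.15e-07) with no overlap. The derivation NPC P15 D2 held 15.5 to 21.8 (median 18.5) CPM, above NPC P15 (1.07 ± 0.20 at adjusted p = 9.2e-05). Serum lowered Fgfr3 in differentiating cells. From 213, 203, 233 and 205 CPM in 1% FBS it went to 143, 173, 148 and 114 CPM in 5% FBS (-0.57 ± 0.11 at adjusted p = 0.0023). It went on to 89.7, 95.7, 86.8 and 88.5 CPM in 10% FBS and to 65.2, 68.5, 67.6 and 62.2 CPM in 20% FBS (-1.73 ± 0.07 at adjusted p = 5.47e-10), each group below 1% FBS. Astrocyte markers summed to 22214 to 26473 CPM in 1% FBS and 5030.0 to 5684 CPM in 20% FBS, with all 6 lower, and their part in the Fgfr3 change was not tested. With CNTF Fgfr3 was not called (0.02 ± 0.11 at adjusted p = 0.895), at 182, 202, 189 and 205 CPM. The astrocyte markers there summed to 25704 to 26969.5 CPM, against 11688 to 15339 CPM in SPONT, with 2 of 6 higher and 2 lower.

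Healthy host astrocytes held 973 to 1366 (median 1175) CPM of Fgfr3. After SCI they held 252, 204, 385, 473 and 212 CPM, a fall of 2.13 ± 0.17 on the log2 scale (adjusted p = 2.15e-08) in which no injured library came near the lowest healthy one. Of 6 astrocyte markers 4 were lower in the same comparison, with sums of 41863 to 48996 CPM in healthy and 25809 to 44219 CPM in injured cord, and their part was not tested. All graft libraries lay above pipetted medium, which held 6.93, 8.09, 7.41, 8.45 and 8.16 CPM. Grafts in SCI held 57.5, 103, 85.6, 59.5 and 135 CPM after 5 days (3.58 ± 0.22 at adjusted p = 9.02e-08) and 78.9, 84.7, 77.9, 59.5 and 94.5 CPM after 14 days (3.70 ± 0.18 at adjusted p = 4.43e-09). Grafts in uninjured cord held 148, 92.2, 118, 126 and 219.9 CPM (4.22 ± 0.24 at adjusted p = 2.69e-08). The 14-day grafts lay below host astrocytes of the matching cord, by 1.97 ± 0.25 on the log2 scale (adjusted p = 0.000119) in SCI and 3.59 ± 0.20 on the log2 scale (adjusted p = 1.73e-10) in uninjured cord, with no overlap in either. Astrocyte markers had mean sums of 18213 CPM in grafts and 34719 CPM in hosts in SCI, and of 14547 and 46225 CPM in uninjured cord. Their part in these differences was not tested. Pipetting in hydrogel gave 12.0, 15.2, 8.45, 20.6 and 16.5 CPM (0.91 ± 0.21 at adjusted p = 0.00822), which overlapped medium alone. This rise was lost in 9 of 10 fits that left out 1 library, all but that without pipetted hydrogel replicate 3 (0.74 to 0.97, adjusted p 0.0102 to 0.0322), and with no filter (0.91, adjusted p = 0.0123).

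**Figure D3:**
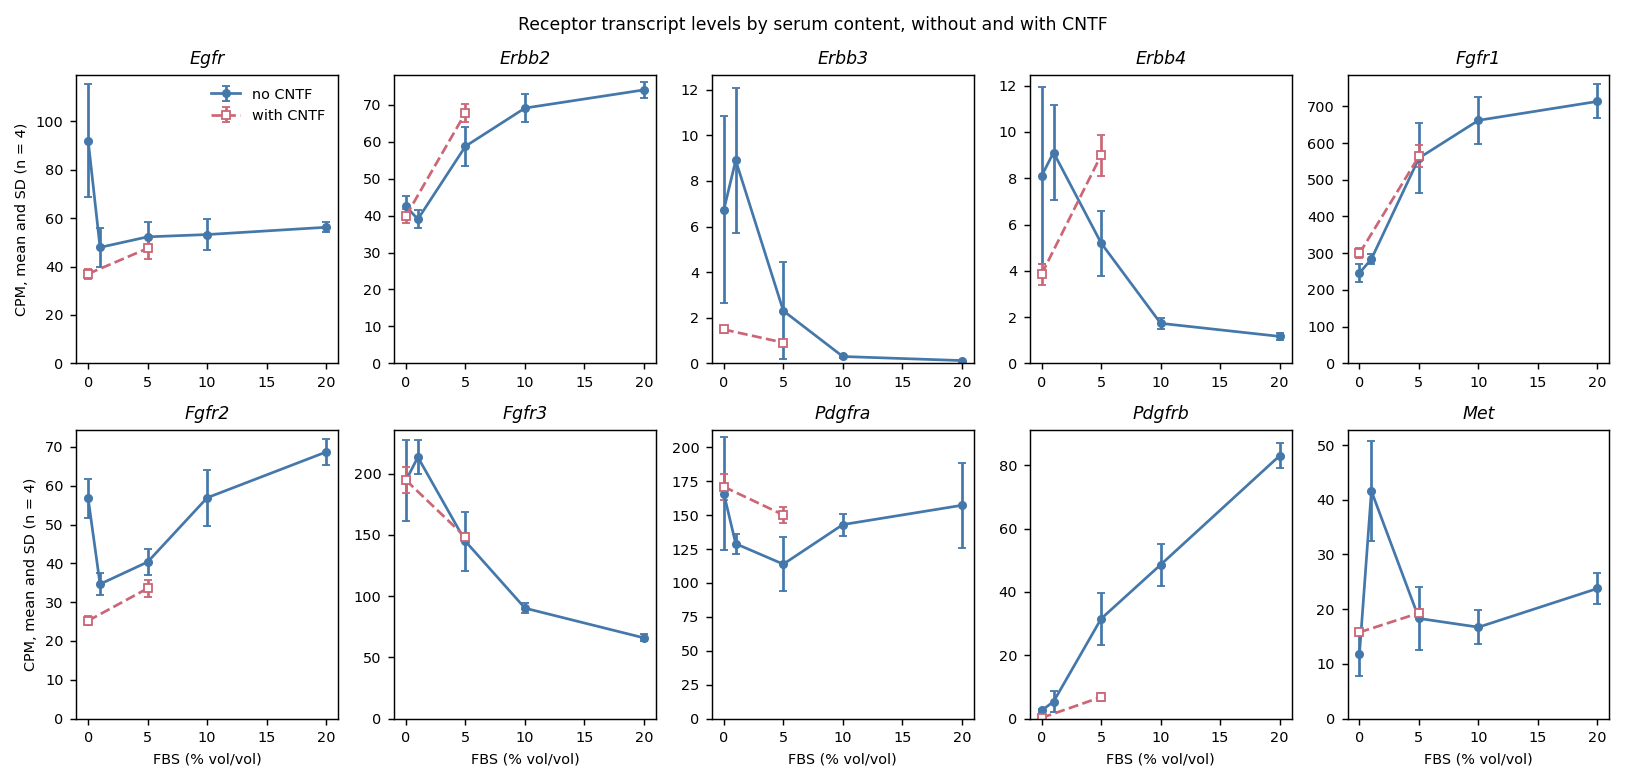
Transcript level of each receptor in CPM (mean and SD, n = 4) against FBS content in % vol/vol, without CNTF (filled circles) and with CNTF (open squares at 0 and 5% FBS); the point at 0% without CNTF is SPONT. Pdgfrb climbed from 5.35 CPM in 1% FBS to 83.1 CPM in 20% FBS and Fgfr1 climbed as well. Fgfr3, Erbb3 and Erbb4 declined, and Pdgfrb with CNTF and 5% FBS stayed near 6.78 CPM.

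Pdgfra, the receptor for PDGF-A that marks oligodendrocyte precursors (Entrez gene 18595, chr5:75151322-75198206 on GRCm38), rose from ESC to NPC (4.86 ± 0.18 at adjusted p = 6.43e-10), from 1.58, 2.05, 2.73 and 1.59 to 61.7, 62.8, 57.7 and 62.0 CPM. Its level also varied among NPC cultures. NPC P5 held 127, 133, 119 and 123 CPM and NPC P30 264, 266, 248 and 266 CPM (1.04 ± 0.05 at adjusted p = 7.02e-13). NPC P15 D2 held 26.2 to 35.3 (median 28.0) CPM (-1.07 ± 0.08 at adjusted p = 5.41e-10 against NPC P15) and NPC P15 D3 125, 117, 103 and 112 CPM (0.95 ± 0.07 at adjusted p = 3.05e-07). No pair of these groups that was compared overlapped. SPONT held 150.3, 115, 197 and 202 CPM, higher than NPC P15 (1.57 ± 0.15 at adjusted p = 4.12e-06), but against NPC P30 the difference was -0.50 (adjusted p = 0.0103). With IGF-1 Pdgfra fell to 74.8, 77.6, 63.2 and 70.5 CPM, below all SPONT libraries (-1.16 ± 0.15 at adjusted p = 0.00383). The fall was lost without any of SPONT replicates 3 and 4 or IGF-1 replicates 1 to 4 (-1.18 to -1.06, adjusted p 0.016 to 0.0217). The 9 oligodendrocyte lineage markers did not fall as a sum, with means of 7706 CPM with IGF-1 and 6897 CPM in SPONT. Their part was not tested. Pdgfra was not called in 20% FBS, at 140.0, 145, 139.9 and 205 CPM against 136, 127, 119 and 133 CPM in 1% FBS (0.26 ± 0.11 at adjusted p = 0.0543). In 5% FBS it was not called either (-0.18 at adjusted p = 0.202), except that it was lower without 5% FBS replicate 2 (-0.33, adjusted p = 0.00242). Added to CNTF, 5% FBS gave a lower level, with values below. Without SPONT replicate 2, which held 115 CPM, 7 receptors were called lower with IGF-1 in place of 2, the added ones being Erbb2 (-0.33), Erbb4 (-1.06), Fgfr1 (-0.33), Fgfr3 (-0.46) and Pdgfrb (-0.91).

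Grafts in uninjured cord had the highest group mean of Pdgfra, with 316, 452, 342, 366 and 155 CPM, against 211, 231, 213, 228 and 228 CPM in pipetted medium. This difference did not pass with all libraries (0.60 ± 0.21 at adjusted p = 0.0272). Among the fits that left out 1, it passed in that without graft uninjured replicate 5, the lowest (0.77, adjusted p = 0.000119). It also passed with DESeq2 (0.70, adjusted p = 0.00194) and with NPC P15 (2.44, adjusted p = 8.26e-06) or NPC P15 D3 (1.38, adjusted p = 0.000303) as reference. In SCI the 5-day grafts held 66.3, 97.6, 103, 84.4 and 144 CPM, below pipetted medium (-1.07 ± 0.16 at adjusted p = 0.0001). This direction turned with other undifferentiated NPC as reference, to 0.78 against NPC P15 and 1.76 against NPC P15 D2, and against NPC P15 D3 there was no call (-0.23). The 14-day grafts held 235, 224, 206, 113 and 218 CPM (0.19 ± 0.17 at adjusted p = 0.36 against pipetted medium). They were higher than NPC P15 (2.04, adjusted p = 3.92e-06) and NPC P15 D3 (0.995, adjusted p = 0.000852). The rise from 5 days (1.19 ± 0.24 at adjusted p = 0.00623) overlapped and was lost with scaling by library size alone (1.01, adjusted p = 0.0172) and without any of graft SCI 14 d replicates 1, 2, 3 and 5 or graft SCI 5 d replicates 1 to 3 (1.08 to 1.21, adjusted p 0.0106 to 0.0211). Both graft groups exceeded the host astrocytes of the matching cord, which held 85.6, 68.4, 87.8, 82.5 and 51.0 CPM in SCI (1.37 ± 0.20 at adjusted p = 0.000412). Healthy host astrocytes held 28.6 to 70.7 (median 52.3) CPM (2.06 ± 0.20 at adjusted p = 1.02e-07 for grafts in uninjured cord against them). Neither pair overlapped. In SCI the oligodendrocyte lineage markers had mean sums of 10351 CPM in 14-day grafts and 31862 CPM in hosts, the opposite direction to Pdgfra. In uninjured cord these sums were 22148 and 9315 CPM. Mean fibroblast marker sums, in grafts and then hosts, were 1849 and 947 CPM in SCI and 2983 and 179 CPM in uninjured cord. The part of either in these Pdgfra differences was not tested.

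Pdgfrb, the receptor for PDGF-B that marks pericytes and fibroblasts, was near the floor in NPC and higher with serum and in grafts (Entrez gene 18596, chr18:61045127-61085067 on GRCm38). ESC held 4.24, 7.45, 4.71 and 4.27 CPM, more than NPC P15 (-2.89 ± 0.59 at adjusted p = 0.000937). With NPC P15 D2 in its place the call was lost (-0.67, adjusted p = 0.0222). SPONT held 2.03, 2.30, 3.35 and 2.49 CPM, against 0.150, 1.39, 0.697 and 0.719 CPM in NPC P15 (1.91 ± 0.56 at adjusted p = 0.0102), which did not pass. The difference passed without NPC P15 replicate 1 or 2 (1.57 and 2.43, adjusted p = 0.00577 and 0.00307), with DESeq2 (1.92, adjusted p = 0.00118) and in a fit over all groups of the experiment (1.92, adjusted p = 3.28e-05). It passed as well with no filter or a filter at 1 CPM (1.92 and 1.91), and with NPC P5 (2.43), NPC P30 (2.67) or NPC P15 D3 (3.51) as reference. NPC P15 D2 held 2.43 to 4.70 (median 3.76) CPM, higher than NPC P15 (2.28 ± 0.46 at adjusted p = 0.000221). CNTF libraries held 0.374, 0.196, 0.0905 and 0.261 CPM, a fall of 3.40 ± 0.33 on the log2 scale (adjusted p = 2.94e-05). Serum raised it in steps. Libraries held 9.85, 5.33, 3.90 and 2.32 CPM in 1% FBS and 38.2, 39.1, 23.1 and 25.8 CPM in 5% FBS (2.56 ± 0.39 at adjusted p = 0.00045). They held 54.7, 53.9, 42.1 and 43.8 CPM in 10% FBS and 78.0, 82.2, 86.0 and 86.2 CPM in 20% FBS (3.93 ± 0.33 at adjusted p = 3.67e-07 against 1% FBS). The 4 ranges did not overlap. CNTF added to 5% FBS gave 5.15, 8.39, 7.22 and 6.38 CPM, below every 5% FBS library (-2.29 ± 0.21 at adjusted p = 7.46e-05) and above every CNTF library (4.70 ± 0.24 at adjusted p = 6.68e-12).

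Fibroblast markers were also higher with serum, though not in the same steps as Pdgfrb. Their summed level was 20.2 to 114 CPM in 1% FBS, 125 to 499.8 CPM in 5% FBS, 157 to 304 CPM in 10% FBS and 372 to 460.4 CPM in 20% FBS, with 2 of 5 higher in the last against the first. The mean sum was lower in 10% than in 5% FBS, at 214 against 247 CPM, where Pdgfrb was higher. It was 15.4 to 18.6 CPM with CNTF and 5% FBS, where 4 of 5 were lower than in 5% FBS. Of the 5, Col1a1 reached 321 CPM in 20% FBS, while Col1a2, at 0.483 CPM, and Lum, at 1.62 CPM, stayed near 0. Their part in the Pdgfrb change was not tested. The 5 mural cell markers summed to 2505 CPM in 20% FBS. Nearly all of it was Acta2, the smooth muscle actin that myofibroblasts also express, at 2503 CPM, with the pericyte markers Rgs5 at 0.286, Abcc9 at 0.135 and Higd1b at 0 CPM.

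All graft libraries exceeded the pipetted ones in Pdgfrb. Pipetted medium held 0.108, 2.33, 0.849, 0.105 and 0.0705 CPM. Grafts in SCI held 216, 333, 339.7, 112 and 126 CPM after 5 days (8.45 ± 0.95 at adjusted p = 9.61e-06) and 21.7, 21.6, 25.9, 33.2 and 56.4 CPM after 14 days (5.94 ± 0.95 at adjusted p = 0.000121). Those in uninjured cord held 20.7, 101, 30.0, 104 and 75.8 CPM (6.66 ± 1.02 at adjusted p = 0.000109). From 5 to 14 days in SCI it fell by 2.58 ± 0.41 on the log2 scale (adjusted p = 0.00185), with no overlap. Grafts in double crush held 326, 158, 139.7, 168 and 93.8 CPM, above every graft SCI 14 d library (2.34 ± 0.36 at adjusted p = 0.00506). The difference was lost without any of graft SCI 14 d replicates 1 to 4 or graft dSCI replicate 2 (2.20 to 2.41, adjusted p 0.0134 to 0.0203), and in a fit over all groups of the experiment (2.31, adjusted p = 0.0195). Against uninjured cord double crush did not pass (1.60 ± 0.43 at adjusted p = 0.0311), but it did with DESeq2 (1.63, adjusted p = 0.00102).

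Beside these Pdgfrb values, the 5 fibroblast markers summed to 5794 to 17552 CPM in graft SCI 5 d, 1024 to 3814 CPM in graft SCI 14 d, 1663 to 4303 CPM in graft uninjured and 7118 to 27243 CPM in graft dSCI, against 12.6 to 17.5 CPM in pipetted medium. All 5 were higher in graft dSCI than in graft SCI 14 d, and 2 of 5 were lower in graft SCI 14 d than in graft SCI 5 d. Myeloid markers, which NPC do not make, summed to 488 to 11593, 396 to 1309, 158 to 912 and 764 to 8366 CPM in the same order of groups. The part of either in the Pdgfrb differences was not tested. In host astrocytes Pdgfrb was not called with injury (0.06 ± 0.15 at adjusted p = 0.747), at 17.5 to 34.2 (median 22.6) CPM in healthy and 24.1, 27.1, 26.5, 36.7 and 32.6 CPM in injured cord. All 5 fibroblast markers were higher there, at 581 to 1383 against 131 to 234 CPM summed.

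**Figure D4:**
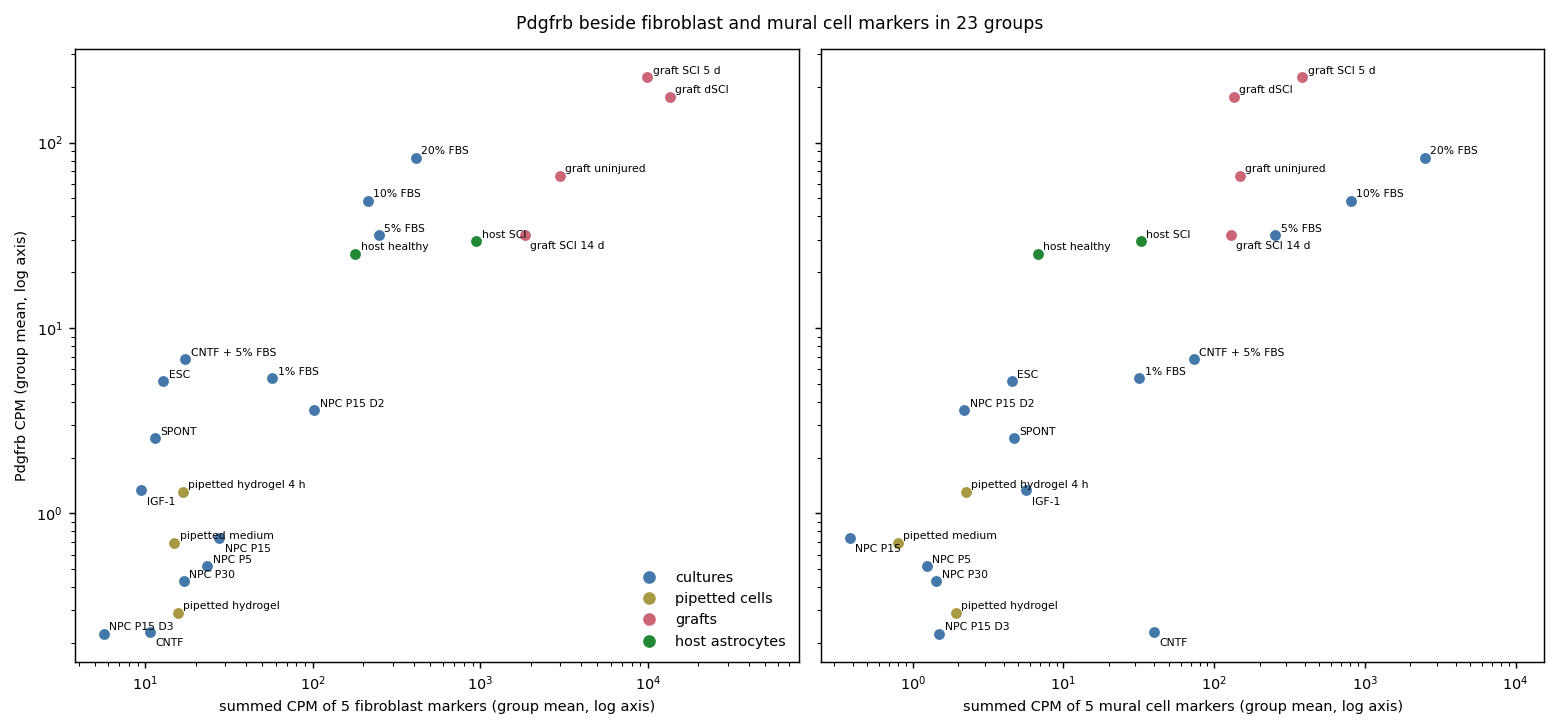
Mean Pdgfrb level in CPM of the 23 groups (points, log axis) against the summed CPM of 5 fibroblast markers (left) and of 5 mural cell markers (right), both on log axes; colours separate cultures, pipetted cells, grafts and host astrocytes. Groups with higher fibroblast marker sums mostly had more Pdgfrb, and 20% FBS cultures, at 83.1 CPM, had more Pdgfrb than graft SCI 14 d at a smaller marker sum.

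Met, the receptor for hepatocyte growth factor, was low in stem cells and higher after differentiation (Entrez gene 17295, chr6:17463349-17573980 on GRCm38). ESC held 2.72, 2.68, 3.08 and 1.27 CPM. In NPC P15 replicates 2 to 4 had no count and replicate 1 had 6, so the falls from ESC (-6.84 ± 1.17 at adjusted p = 0.000257) and the rises in NPC P15 D2 (4.97 ± 0.87 at adjusted p = 5.4e-05) and NPC P15 D3 (3.93 ± 1.15 at adjusted p = 0.00971) have uncertain sizes. Without that library the reference is at 0 and the fits gave -10.46, 7.61 and 7.42, which are not bounds. The NPC P15 D3 call was lost without any other single library (3.50 to 4.16, adjusted p 0.0173 to 0.0371), with no filter (3.99, adjusted p = 0.0238) and with scaling by library size alone (3.90, adjusted p = 0.0101). SPONT libraries held 17.6, 11.9, 9.40 and 8.71 CPM (9.07 ± 0.64 at adjusted p = 3.39e-07). In 1% FBS Met reached 42.4, 46.5, 48.9 and 28.6 CPM, its highest group mean, with every library above all SPONT libraries (1.83 ± 0.24 at adjusted p = 0.0005). With more serum it was lower, at 18.1, 26.3, 15.2 and 13.6 CPM in 5% FBS (-1.19 ± 0.23 at adjusted p = 0.00177). In 20% FBS it held 26.5, 23.7, 24.9 and 20.0 CPM (-0.84 ± 0.16 at adjusted p = 0.000411), and neither group overlapped 1% FBS.

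Grafts held Met at 22.4, 17.9, 20.9, 8.18 and 23.1 CPM in SCI after 5 days (4.22 ± 0.47 at adjusted p = 9.12e-06) and 24.2, 19.6, 26.6, 21.8 and 16.4 CPM after 14 days (4.70 ± 0.42 at adjusted p = 7.3e-07). In uninjured cord they held 26.1, 31.0, 21.4, 23.1 and 13.1 CPM (4.49 ± 0.47 at adjusted p = 4.29e-06). Every graft library was above the 0.645, 0.490, 2.26, 0.915 and 0.958 CPM of pipetted medium. These levels were close to those of host astrocytes, which held 9.92 to 21.9 (median 18.3) CPM in healthy and 23.7, 16.1, 19.3, 26.9 and 17.5 CPM in injured cord. No comparison among grafts, with injury of the host (0.03 ± 0.15 at adjusted p = 0.878), or of grafts with hosts passed for Met. The graft and host difference was 0.02 ± 0.17 (adjusted p = 0.947) in SCI and -0.19 ± 0.19 (adjusted p = 0.412) in uninjured cord.

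CNTF with 5% FBS against CNTF alone gave a call for 9 of the 10 receptors, all but Met. Besides Pdgfrb, Erbb4 rose by 1.11 ± 0.11 (adjusted p = 3.07e-08), Fgfr1 by 0.80 ± 0.04 (adjusted p = 1.11e-11), Erbb2 by 0.65 ± 0.05 (adjusted p = 9.74e-10), Fgfr2 by 0.30 ± 0.05 (adjusted p = 6.54e-05) and Egfr by 0.25 ± 0.06 (adjusted p = 0.00183). Lower were Erbb3 (-0.82 ± 0.18 at adjusted p = 0.00053), Fgfr3 (-0.51 ± 0.04 at adjusted p = 4.7e-09) and Pdgfra (-0.30 ± 0.05 at adjusted p = 1.86e-05). Met did not pass (0.18 ± 0.06 at adjusted p = 0.0137). It passed without CNTF + 5% FBS replicate 4 (0.22, adjusted p = 0.00553), with DESeq2 (0.19, adjusted p = 0.00537), with the size factors of DESeq2 (0.19, adjusted p = 0.00943) and with scaling by library size alone (0.29, adjusted p = 0.000258). In a fit over all cultures, which estimates the spread of each gene over all of them together, 4 of the 10 were called. Egfr, Erbb3, Erbb4, Fgfr2 and Pdgfra were not. The interaction of CNTF with 5% FBS was called for 3 receptors, Egfr (1.07 ± 0.20 at adjusted p = 0.000586), Erbb4 and Fgfr2, where 22.9% of all genes were called. DESeq2 called it for Pdgfrb too (1.10, adjusted p = 0.00957), and without 5% FBS replicate 2 edgeR called it for Fgfr1 (-0.48, adjusted p = 0.00311).

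**Figure D5:**
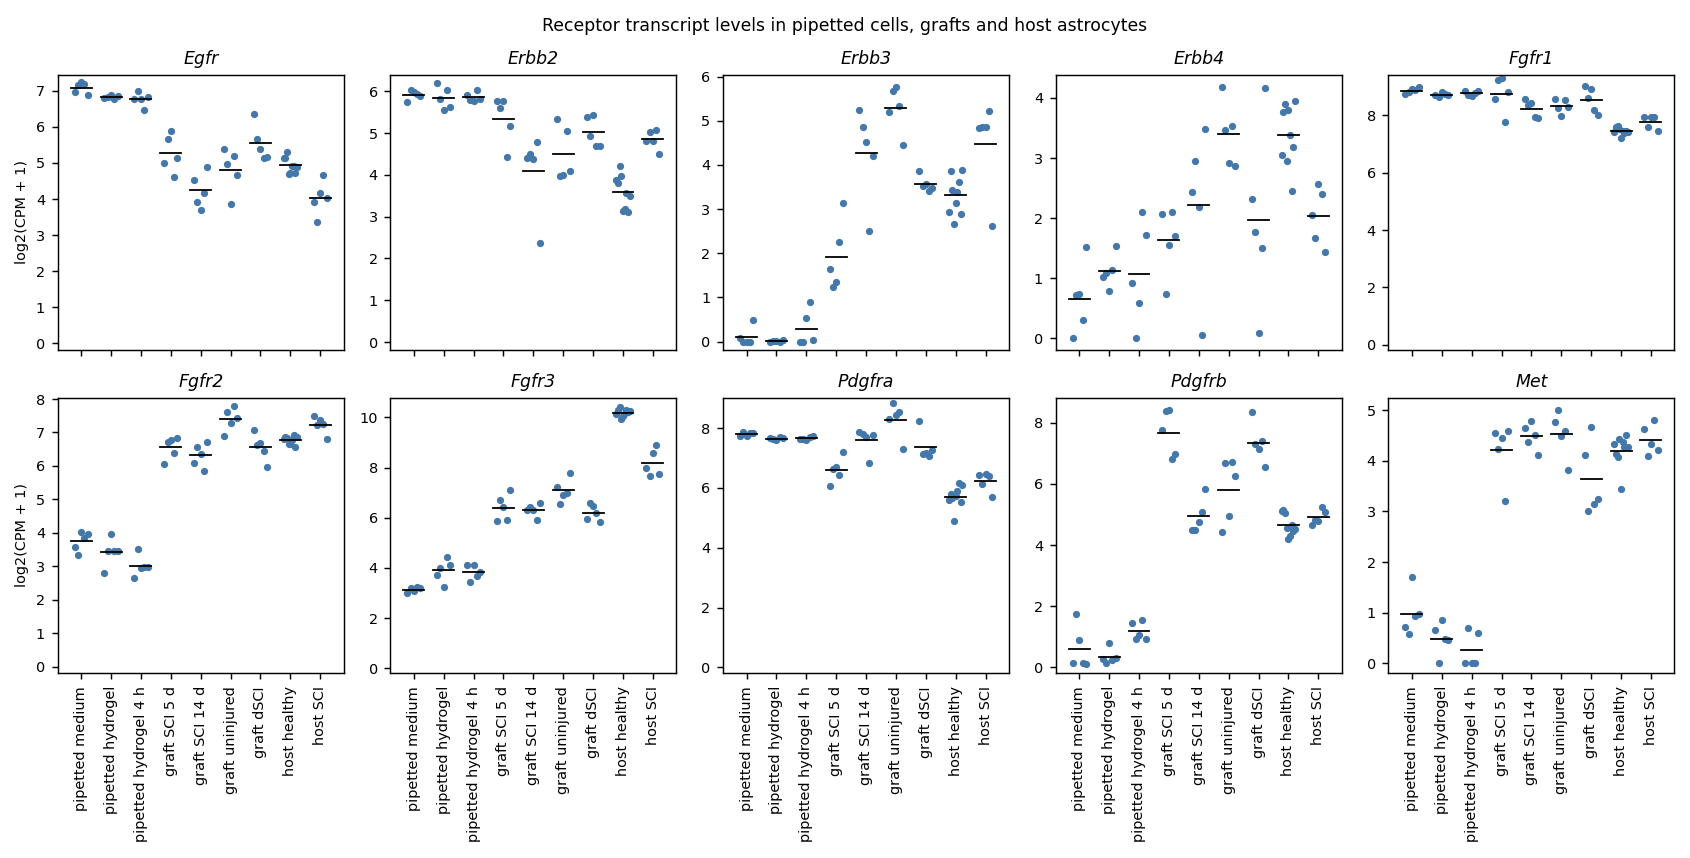
Transcript level of each receptor, as log2(CPM + 1), in every library of pipetted NPC, grafts and host astrocytes; points are libraries and lines are group means, and the vertical axes differ between receptors. Fgfr2, Fgfr3, Pdgfrb and Met of all graft libraries lay above all pipetted libraries, and Fgfr3 of healthy host astrocytes lay above every other library.

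The genes around the receptors were counted in 5 lists: 38 receptor ligands, 20 feedback inhibitors that dampen the signal, 33 adaptors and co-receptors, 19 ERK response genes and 48 other receptor tyrosine kinases. Beside the counts stands the share of all genes called in either direction. From ESC to NPC P15, where 67.2% of all genes were called, 12 of 19 tested feedback inhibitors rose and 3 fell (median log2 difference 0.58, against -0.097 over all genes), among them Spry1, an inhibitor of RAS signalling, at 3.97 ± 0.10. Of 26 ligands 5 rose and 8 fell, with Fgf4, the FGF that ESC make, at -12.81 ± 0.12 and Fgf1 at 6.07 ± 0.16. Adaptors and co-receptors rose in 21 of 32 and fell in 7 (median 1.20), with the co-receptor Nrp1 at 7.33 ± 0.19.

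SPONT, with lowered mitogens, was compared with NPC P15, and 57.2% of all genes were called. Of 19 feedback inhibitors 11 fell and 3 rose (median -0.71, against 0.085 over all genes). The largest falls were of Spry4, at -7.54 ± 0.14, and of the ERK phosphatases Dusp6, at -7.41 ± 0.15, and Dusp4, at -7.05 ± 0.20. ERK response genes fell in 9 of 19 and rose in 3 (median -0.80), with the transcription factors Etv5 at -5.25 ± 0.14 and Etv4 at -3.89 ± 0.15 and the cyclin Ccnd1 at -3.82 ± 0.08. Of 20 ligands 4 rose and 5 fell, among them Tgfa, a ligand of Egfr, at 3.44 ± 0.15. Among 36 other receptor tyrosine kinases 12 rose and 14 fell, with Ntrk2, the receptor for BDNF, at 4.52 ± 0.09. The sources used here do not say which NPC culture SPONT was made from, and these lists were counted with no other NPC reference. Undifferentiated NPC also differed from NPC P15. Feedback inhibitors were higher in 2 and lower in 10 of 19 in NPC P15 D3, and 5 and 9 of 19 in NPC P15 D2. ERK response genes were higher in 1 and lower in 7 of 18 in NPC P15 D3, and 8 and 5 of 17 in NPC P15 D2.

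With CNTF (19.9% of all genes called) 7 of 19 ERK response genes rose and 2 fell (median 0.87, against -0.013 over all genes), with Junb at 2.88 ± 0.29, and 8 of 19 ligands fell and 2 rose. In 20% against 1% FBS (60%) 11 of 19 feedback inhibitors rose and 2 fell (median 0.44, against -0.00047 over all genes), with Dusp6 at 3.49 ± 0.14 and Spry1 at 3.18 ± 0.12. ERK response genes rose in 12 of 19 and fell in 5 (median 1.09), and ligands rose in 11 of 23 and fell in 4, with Pdgfb, a ligand of Pdgfrb, at 4.38 ± 0.27 and Tgfa at -2.43 ± 0.14. Other receptor tyrosine kinases rose in 18 of 37 and fell in 12, with the VEGF receptor Kdr at 6.19 ± 0.16. CNTF with 5% FBS against 5% FBS (23.3%) gave 3 higher and 5 lower of 19 feedback inhibitors, with Spry1 at -1.76 ± 0.11.

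In grafts against pipetted medium feedback inhibitors fell in 10 of 19 after 5 days in SCI, 9 after 14 days and 10 in uninjured cord, and 2 rose in each (medians -0.87, -0.85 and -1.14, against 0.11, 0.16 and 0.14 over all genes). Spry4 and Etv5 fell in all 3. The log2 differences of Spry4 were -6.43 ± 0.32, -5.86 ± 0.23 and -5.27 ± 0.22, and the log2 differences of Etv5 were -5.45 ± 0.16, -4.71 ± 0.38 and -4.11 ± 0.19, in that order. Tgfa rose, by 1.96 ± 0.56, 3.67 ± 0.23 and 4.03 ± 0.21. Ligands rose in 4 of 20, 9 of 22 and 13 of 22 and at most 2 fell in each, where 55.5, 52.5 and 53.4% of all genes were called. The list of other receptor tyrosine kinases included Csf1r, a receptor of myeloid cells, which rose by 10.17 ± 1.35, 10.05 ± 0.94 and 10.19 ± 0.80, beside the myeloid marker sums given above.

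In host astrocytes after SCI (41.1% of all genes called) 14 of 19 ERK response genes rose and 3 fell (median 1.98, against 0.018 over all genes), with Junb at 3.12 ± 0.13, Ier3 at 2.68 ± 0.25 and Ccnd1 at 2.59 ± 0.11. Feedback inhibitors fell in 10 of 19 and rose in 5 (median -0.44). Of 26 ligands 7 rose and 7 fell, with Pdgfb at 4.20 ± 0.28, Pdgfa at 1.83 ± 0.14 and Tgfa at 1.55 ± 0.13. The 6 myeloid markers, all higher, summed to 202 to 1561 CPM in these libraries, against 10.6 to 21.4 CPM in healthy cord, and their part in these counts was not tested.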

How the data were processed

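RNA was obtained by RiboTag immunoprecipitation from 107 libraries of 23 groups. Per the study's methods and the file headers, the authors merged the lanes of a sample, used Trimmomatic for trimming, HISAT2 for alignment (build mm10) and featureCounts, at its defaults, for the number of reads per Entrez gene. They deposited raw counts of 27179 genes for each sample. These tools were run on the Galaxy server, and at default settings counting takes no account of strand. The 96 libraries made from paired data sets had both mates counted, and 53.1 to 73.8% of their gene counts from 1 to 20 were even, against 43.1 to 48.5% in the 11 single-read libraries. Totals ran from 12286240 to 147764968 counts, and low counts limit the precision of Erbb3, Erbb4, Pdgfrb and Met in NPC.

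Gene names came from RefSeq for 25275 identifiers and from GENCODE for 17, and 1887 had none. Exon lengths were found for 21572 genes. CPM used library totals. Each comparison was fitted on the libraries of its groups with edgeR 4.0.16 in R 4.3.3: TMM scaling, filterByExpr at its defaults, glmQLFit and glmQLFTest, and Benjamini-Hochberg adjustment over all genes tested, with calls at an adjusted p below 0.01. Standard errors are the log2 fold change over the square root of F. The script was tested on simulated data first. Alternatives were size factors of DESeq2, library size alone, DESeq2 1.42.0, other filters, all groups of an experiment in 1 fit, a replicate block, other NPC references and every library left out in turn. All 10 receptors were named in every comparison, and from each list up to 3 called genes of the largest change with a mean of at least 10 CPM. The receptors and gene lists were chosen with earlier results of these data known. Bounds and ratios of counts cover counting error only, with exact 95% intervals. Promoter windows came from RefSeq on GRCm38.p6, and the chromosome of Pdgfrb was left out of the search for them. The FPKM values that the authors computed were not used here.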

Additional observations from a re-analysis of the deposited data

Results flagged for a closer look

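Of 200 receptor and group combinations with a mean of at least 1 CPM, 13 held 1 library far from the others (the gap to its neighbour over the group's range exceeded Dixon's 95% critical value), which chance gives in about 1 in 20 groups. Pdgfra accounted for 5 of them: NPC P30 replicate 3 was low at 248 CPM, graft SCI 14 d replicate 4 was low at 113 CPM, and 5% FBS replicate 2 (144 CPM), 20% FBS replicate 4 (205 CPM) and graft dSCI replicate 1 (304 CPM) were high. The 304 CPM stood beside a nearest library of 154.5 CPM. NPC P15 D2 replicate 6 stood apart for both Egfr, at 217 CPM, and Fgfr1, at 312 CPM.

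Erbb3 was high in SPONT replicate 1, at 12.8 CPM, and low in host SCI replicate 5, at 5.12 CPM against 27.4 CPM in the next library. Erbb4 reached 17.0325 CPM in graft dSCI replicate 5, where the next library held 3.99 CPM. Fgfr3 was high in CNTF + 5% FBS replicate 3, at 153.6 CPM, Pdgfrb in ESC replicate 2, at 7.45 CPM, and Met in pipetted medium replicate 3, at 2.26 CPM.

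The difference made by CNTF depended on serum for 3 receptors, by the interaction term in edgeR at an adjusted p below 0.01. It was higher with 5% FBS than without serum by 1.07 for Egfr, 1.76 for Erbb4 and 0.80 for Fgfr2 on the log2 scale.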

How the results depend on the processing

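Of the 105 calls, 78 held under every alternative other than a change of NPC reference, and 86 held in every fit with a library left out. Over all alternatives 3930 receptor values kept direction and side of the threshold, 163 lost a call, 89 gained one and 9 changed sign. All 9 came from another NPC reference. Erbb2 in NPC against ESC went from 0.30 to -0.0056 with NPC P5, -0.087 with NPC P30 and -0.17 with NPC P15 D3, and Fgfr2 from -0.55 to 0.59 with NPC P15 D2. In SPONT Egfr went to 0.20 with NPC P5 and 0.27 with NPC P15 D3, and Pdgfra to -0.50 with NPC P30. Pdgfra in graft SCI 5 d went to 0.78 with NPC P15 and 1.76 with NPC P15 D2, a reference chosen after seeing the data because both groups were single-read. The cause was not tested.

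The number of receptors called moved by over 1.5 times in these cases. With DESeq2 it was 6 for IGF-1 (2 with edgeR), 2 for hydrogel (1), 2 for graft dSCI against uninjured (1), 2 for graft dSCI against SCI 14 d (1) and 6 for graft uninjured against host (3). In a fit over all groups of the experiment it was 1 for CNTF + 5% FBS against 5% FBS (2), 4 against CNTF (9), 1 for graft SCI 14 d against uninjured (0) and 0 for graft dSCI against uninjured (1). By library size alone it was 1 for graft SCI 14 d against uninjured (0) and 7 for graft uninjured against host (3). With no filter it was 0 for hydrogel (1). Leaving out 1 library gave 3 to 5 for NPC P15 D3, 0 to 7 for IGF-1, 5 to 8 for 5% FBS, 1 to 4 for CNTF + 5% FBS against 5% FBS, 0 to 1 for hydrogel, 1 to 3 for graft SCI 14 d against 5 d, 0 to 1 against uninjured, 0 to 1 for graft dSCI against uninjured, 0 to 2 against SCI 14 d and 3 to 5 for graft uninjured against host.

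Replicate numbers showed no steady pairing of the samples. Over 108 pairs in 24 comparisons the correlations of deviations ran from -0.36 to 0.36, 14 exceeded 0.1, and no comparison had all its pairs above 0.1. This does not show that the samples were unpaired. For 1% FBS against SPONT, and for 20% against 1% FBS, 2 of 4 pairs exceeded 0.1. With the replicate number as a block 17 receptor calls were lost and 5 gained over all comparisons. With it, 0 receptors were called for IGF-1 (2 without the block), hydrogel (1), graft SCI 14 d against 5 d (3), graft dSCI against uninjured (1) and against SCI 14 d (1).

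Scaling by library size alone moved the median of all genes by -0.34 and -0.28 for graft SCI 14 d against medium and against uninjured, -0.23 for graft dSCI against uninjured, -0.17 for graft SCI 14 d against 5 d, -0.13 for SPONT, 0.10 for the interaction, 0.11 for CNTF + 5% FBS against CNTF, 0.18 for host SCI and 0.55 for graft uninjured against host. Size factors of DESeq2 moved it by 0.12 for graft SCI 5 d and 0.11 for graft uninjured. The share of higher genes among all calls went from 54.9 to 42.7% (graft SCI 14 d against medium), 51.3 to 32.8% (against 5 d), 45 to 12.6% (against uninjured), 60.8 to 27.8% (graft dSCI against uninjured), 70.6 to 82.6% (against SCI 14 d), 54.2 to 70.8% (host SCI), 53.2 to 79.6% (graft uninjured against host), 48.4 to 68.4% (CNTF + 5% FBS against 5% FBS) and 44.9 to 61.8% (interaction). Depth limits Erbb3, Erbb4, Pdgfrb and Met in NPC, where several libraries held few counts or none.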

Other observations

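Receptor tyrosine kinases outside the 10 were called in the same fits. Ddr2, a collagen receptor, was higher by 3.38 ± 0.09 on the log2 scale in NPC P30 than in NPC P5, by 3.09 ± 0.06 in NPC P15 D2 than in NPC P15 and by 2.94 ± 0.10 in 20% than in 1% FBS. Fgfr4, the fourth FGF receptor, was higher in 20% than in 1% FBS by 3.96 ± 0.28 and lower with CNTF in 5% FBS (-1.94 ± 0.14).

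Over the 23 group means of log2(CPM + 1), the genes with the most similar pattern were sought among 13052 genes with a highest group mean of at least 10 CPM. As a description, with no test, the highest Pearson r was with Dchs1 for Egfr (0.975), Pald1 for Erbb2 (0.946), Myrf for Erbb3 (0.942), Nebl for Erbb4 (0.908), Gxylt2 for Fgfr1 (0.94), Zfyve27 for Fgfr2 (0.964), Ppil6 for Fgfr3 (0.965), Hoxd3 for Pdgfra (0.892), Islr for Pdgfrb (0.952) and Zrsr1 for Met (0.969). The next in line were Zfpm2 and Colgalt2 for Egfr (0.956 and 0.951) and Igf1 and Tagln for Pdgfrb (0.946 and 0.939). Among the receptors themselves r was 0.88 for Erbb4 and Fgfr3, 0.86 for Met with each of Fgfr2 and Fgfr3, 0.82 for Fgfr2 and Fgfr3, 0.81 for Fgfr2 and Pdgfrb and -0.83 for Egfr and Erbb3. The groups made of NPC share 1 ESC line, and groups from one experiment share its conditions.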
